A study of Xenopus tropicalis with 40 samples.

Results

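The nucleolar genes fbl and tcof1 are described here from a catalogue of transcripts assembled from embryos of the western clawed frog Xenopus tropicalis. They are 2 of 8329 annotated genes with a model and were taken by their symbols, fbl and LOC100216130. The RefSeq gene table names the second tcof1. They were chosen with their isoform numbers in these data known, so those numbers are given as a description only. The study sequenced polyadenylated RNA of untreated outbred embryos as 40 libraries of 23 stages, from the 2-cell embryo to the tadpole of stages 44 and 45, in 2 clutches. The values belong to 1 assembly pooled over all libraries. No value of a single stage or clutch was analysed here, the depth is unknown, and there are no replicates and hence no tests. A count of transcripts is a count of different assembled structures and not an amount of RNA.

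Fibrillarin, the product of fbl, is the methyltransferase of the box C/D small nucleolar ribonucleoproteins, which methylate the ribose of ribosomal RNA at sites chosen by a guide RNA. Its front end is a glycine- and arginine-rich stretch and its back end is the enzyme. Treacle, the product of tcof1, is a phosphoprotein of the nucleolus that supports transcription of ribosomal RNA genes by RNA polymerase I. In humans, mutations of TCOF1 cause Treacher Collins syndrome, a disorder of the facial skeleton that arises in the neural crest. In mammals the middle of treacle is a row of similar units rich in serine and acidic residues, most of them encoded by an exon of their own.

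Both genes had far more isoforms than most genes. The fbl locus held 165 transcripts and the tcof1 locus held 248, all of them spliced and assembled, against a median of 6 over 7410 spliced genes with an assembled transcript. All 165 and all 248 were coded as new junction chains of the annotated gene, and neither gene had a transcript with exactly the annotated chain. The authors deposited a score per transcript, here called its relative weight, whose meaning was not given in the sources used here. A weight of 1 was held by 89 transcripts of fbl and 88 of tcof1. The fbl transcripts lay on the minus strand of scaffold GL173709 from 136998 to 143213, and those of tcof1 on the minus strand of scaffold GL173195 from 90824 to 122523. Positions are counted from 1 on a build that is not given in the sources used here. Transcripts of fbl had 3 to 12 exons with a median of 10 and 109 to 2004 bases with a median of 1614. Those of tcof1 had 5 to 25 exons with a median of 21 and 1144 to 5655 bases with a median of 4755.

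**Figure D1:**
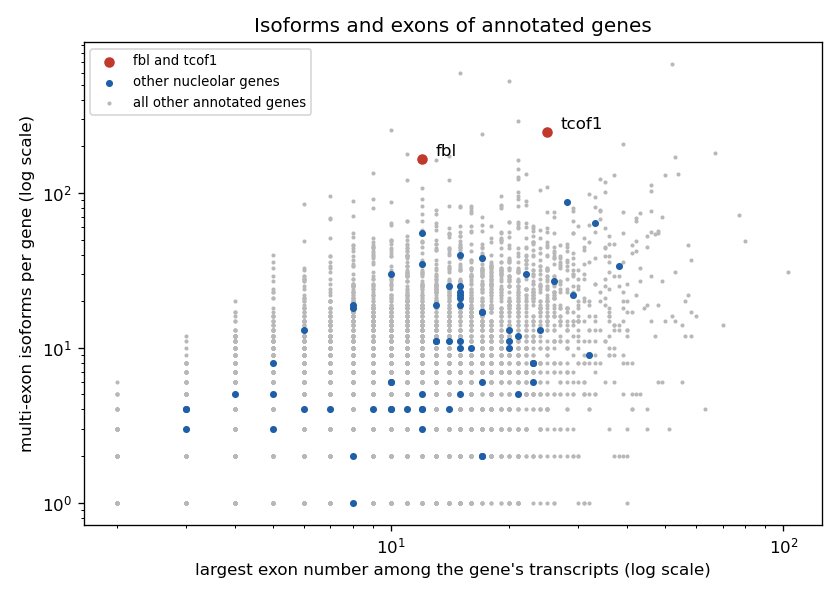
Each point is an annotated gene with an assembled spliced transcript. The horizontal axis is the largest exon number among its transcripts and the vertical axis its number of multi-exon isoforms, both on log scales. The genes fbl (12 exons, 165 isoforms) and tcof1 (25 exons, 248 isoforms) lie above the other nucleolar genes, of which the highest has 87.

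The other genes of the nucleolus had fewer isoforms. A list of nucleolar and ribosome assembly genes held 124 names, of which 69 had a model, fbl and tcof1 included. The other 65 with a spliced assembled transcript had a median of 10 isoforms and a range of 1 to 87. The median was 22 over 3 box C/D genes, 11 over 3 box H/ACA genes and 5 over 5 chaperone and scaffold genes. It was 10 over 52 genes of pre-rRNA processing. Over the 2 genes of RNA polymerase I and its factors, polr1e with 4 and nolc1 with 30, it was 17. The highest was wdr3 with 87, followed by utp6 with 64. Both encode parts of the complex that processes the small subunit RNA. The locus of utp6 joined 2 annotated genes, and the 64 are the transcripts that carry its symbol. The nucleolar chaperone gene npm1 had 55, pes1, whose product acts on the large subunit, had 40, and rrp1b had 38.

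The partners of fibrillarin in the box C/D particle showed 35 isoforms for nop56, 22 for nop58 and 4 for nhp2l1, which encode its other core proteins. Around treacle, nolc1 had 30 isoforms and the polymerase subunit gene polr1e had 4. The gene nolc1 encodes a relative of treacle that is built of similar serine-rich units, and its locus joined 2 annotated genes. Of the 67 other list genes with a model, 1 was present as an annotated model alone, sbds, a gene of ribosome maturation. Of all annotated genes it was 10.7%.

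Treacle stood out for a long row of exons of nearly the same size. Internal exons were given their most frequent ends, and those found in at least 10% of the transcripts were numbered in the direction of transcription, exon 1 being the first exon. At tcof1 this gave 23 internal exons, and exons 6 to 19 formed an unbroken row of 14 exons whose lengths were all divisible by 3. They measured 171 to 210 bases, with a median of 190.5 bases and a sum of 2661 bases. Exon 6 lay at 117309 to 117497 and exon 19 at 102776 to 102964.

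The exons that flank the row were of other lengths. Exons 2, 3, 4 and 5 had 25, 208, 172 and 74 bases and exon 20 had 163 bases, none of them divisible by 3. Exon 21, the largest internal exon with 438 bases, and exon 24 with 21 bases were divisible by 3. In all, 16 of 23 internal exons (69.6%, Wilson 95% interval 49.1% to 84.4%) were divisible by 3, against 39% of 66797 internal exons of the same kind at 7250 other annotated loci with at least 2 spliced transcripts. The interval covers counting error only.

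The row of 14 placed tcof1 at rank 24 of 7252 loci, and at fbl the longest row was 2. The median over all loci was 2 and the largest value was 97. The 3 genes closest to tcof1 in isoform and exon number were hnrnpa3 with a longest row of 5, vwa5a.2 with 4 and cdk11b with 6. At the locus of nolc1, which joins 2 annotated genes, the longest row was 7.

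Which of the 14 exons a transcript held varied from one transcript to the next. Of 244 transcripts that spanned the row, 17 had at least a part of all 14, and 4 had all 14 in their full form. The number of exons touched had a median of 11 and a range of 3 to 14. Over all 23 internal exons the transcripts showed 105 different patterns of presence and absence. The most frequent pattern, with 17 transcripts, had all 23.

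The loss was uneven along the row. Exon 11 was absent from 55.6% of 248 spanning transcripts, exon 12 from 47.6%, exon 13 from 41.1% and exon 10 from 39.9%. Exons 6 and 17 were absent from 35.1% and 30.6%. Exon 18 was absent from 1 of 248 transcripts and exon 7 from 4 of 245. Outside the row, exons 20 and 22 were present in full in all 237 transcripts that spanned them, which made them the only constitutive exons of the gene.

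**Figure D2:**
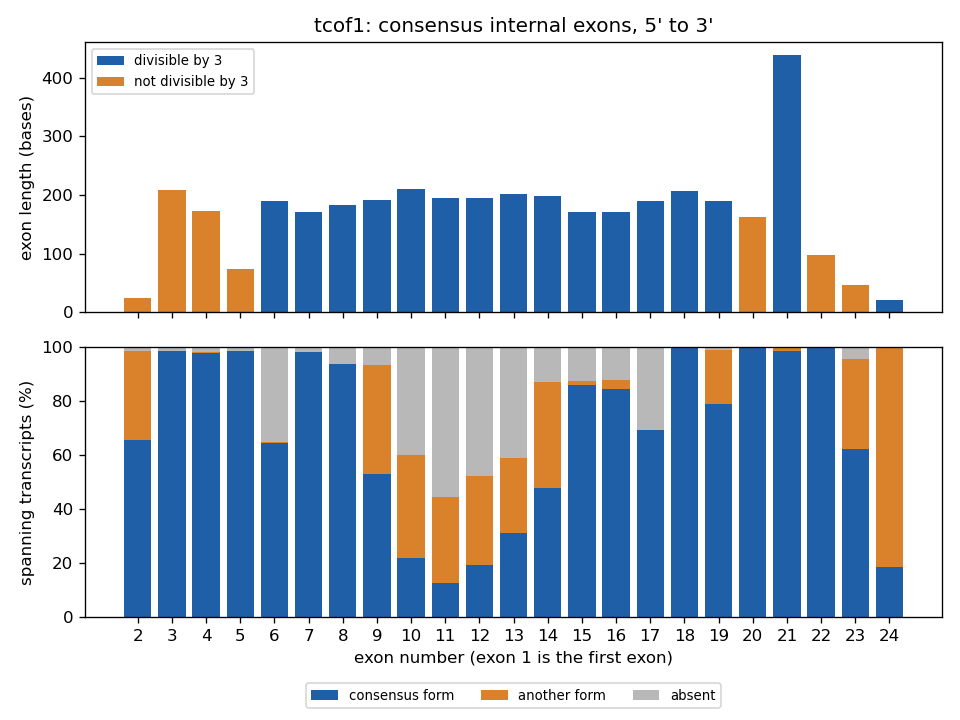
The upper panel gives the length in bases of each internal exon of tcof1 in order of transcription, and the lower panel the percentage of spanning transcripts that hold its consensus form, another form or no part of it. Exons 6 to 19 are all divisible by 3 and measure 171 to 210 bases, and among these 14 exons, exons 10 to 13 have the lowest shares of the consensus form.

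The full form was also rare in the middle of the row. Exon 11 was full in 31 transcripts, exon 12 in 48, exon 10 in 54 and exon 13 in 77, while 79, 82, 95 and 69 transcripts held another form of them. Among the sources of other forms were junctions that began inside one exon and ended inside another, so that the front of the first was fused to the back of the second. There were 34 such junctions at tcof1, in 211 of 248 transcripts. Of 7250 other annotated loci, 12.9% had a junction of this kind. The number placed tcof1 at rank 16 of 7252 loci, where the largest value was 575.

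Of the 34 junctions, 32 connected exons among exons 9 to 14. These 6 exons allow 15 pairs, and all 15 were connected by at least 1 junction. The 2 sides met at like distances from the 5′ ends of their exons. The acceptor's distance minus the donor's had a median of 0 bases, and in 31 of 32 junctions it was within 15 bases. In the exception it was -54 bases.

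The fused pieces measured 183 to 249 bases, where the exons of the row measured 171 to 210. The piece of 249 bases, in 1 transcript, was the only one longer than 210 bases. In 30 of 32 junctions their length was divisible by 3. Over all pairs of exons of tcof1 it was 30 of 34 (88.2%, Wilson 95% interval 73.4% to 95.3%), against 45.8% of 4134 junctions of this kind at the other loci. Restricted to junctions in at least 2 transcripts, it was 27 of 29, against 54.8% of 1247. Junctions of 1 pair of exons are not independent of each other. Of 12 pairs with 2 or more junctions, 7 had junctions of 1 intron length only, so that their pieces had 1 length.

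A junction from exon 9 to exon 11 shows the form: 123 bases of exon 9 were followed by the last 69 bases of exon 11, a piece of 192 bases in 25 transcripts. A second junction of this pair, after 104 bases of exon 9, had the same intron length of 647 bases and was in 6 transcripts. The most used of the junctions between exons 13 and 14, in 20 transcripts, gave a piece of 189 bases.

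The sites inside the 6 exons recurred. Each exon had a pair of sites 61 bases apart, although in exon 11 the farther site was used by 1 transcript only. Counted from the 3′ end of the exon, they lay at 84 and 145 bases in exons 10, 12 and 13, at 69 and 130 bases in exons 9 and 11, and at 72 and 133 bases in exon 14. No other spacing was found in more than 2 exons. The spacing was singled out after the values had been seen. The bases at these sites were not read, and whether they carry the usual splice signals was not tested.

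**Figure D3:**
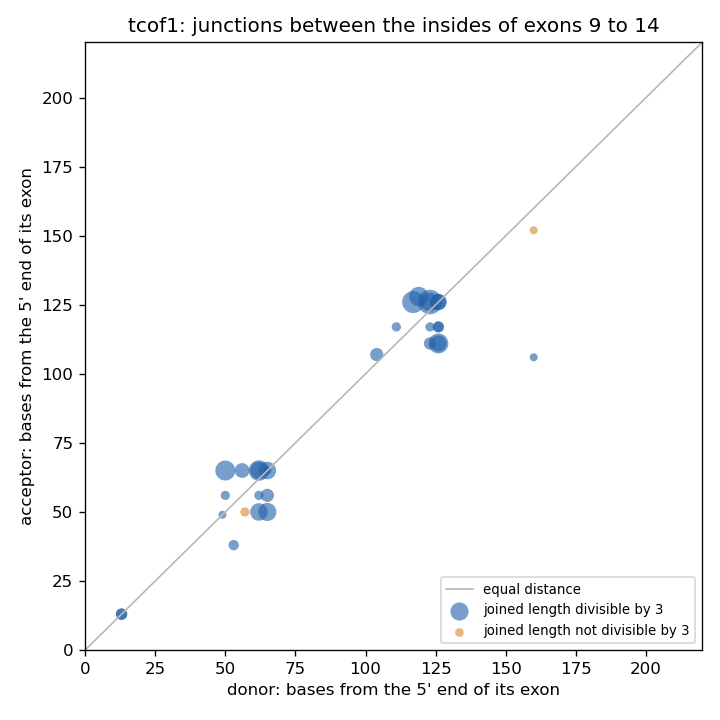
Each disc is a junction of tcof1 that begins inside one of exons 9 to 14 and ends inside another. The axes give the distance in bases of its donor and of its acceptor from the 5′ end of their exons, the area grows with the number of transcripts, and the line marks equal distances. Of 32 junctions, 31 lie within 15 bases of the line, and 30 give a length divisible by 3.

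These changes left the remainder by 3 of the spliced length mostly as it was. Between exons 3 and 22 the 232 transcripts with both exons had 1762 to 3508 bases, in 104 different lengths. The most frequent length was 2518 bases, and 207 of the 219 transcripts of another length (94.5%) differed from it by a multiple of 3. Over 461 other loci with at least 20 transcripts to compare it was 55% of 11066 transcripts, and the median per locus was 52.3%. At 36 of the 461 loci the share was as high as at tcof1 or higher. The stretch holds the row of exons 6 to 19, and the loss of whole exons of the row can change its length by multiples of 3 only. The share at tcof1 is therefore not separate from the row. The coding ends of the models equal the transcript ends, so no reading frame was measured.

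Skipped exons in the strict sense, with both flanking junctions shared by the transcript that skips, numbered 17 at tcof1 when exons with different ends were counted apart. Of these, 12 (70.6%, Wilson 95% interval 46.9% to 86.7%) had a length divisible by 3, against 45.6% of 14449 at the other loci. All 12 came from the row of exons 6 to 19 and had 183 to 210 bases, so this share is not separate from the row either. Forms of the same exon are not independent of each other, so the interval is no test against the other loci. The 5 that were not divisible by 3 were 2 forms of exon 23 with 44 and 47 bases, 2 forms of exon 4 with 169 and 172 bases, and a form of exon 6 with 179 bases in 1 transcript. Of the constitutive exons, none of 2 was divisible by 3, against 37.6% of 28205.

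Acceptor sites 3 bases apart were also found at tcof1. There were 11 pairs of alternative acceptors that shared a donor, and 7 lay exactly 3 bases apart, against 12.5% of 20938 such pairs at the other loci. The number of 7 was rank 24 of 7252 loci, and fbl had the same number. The genes closest to tcof1 in isoform and exon number had such pairs too, 5 at hnrnpa3, 1 at vwa5a.2 and 5 at cdk11b. The sole pair of alternative donors lay at another distance, where 8% of 15062 donor pairs at the other loci lay 3 bases apart. At exon 2 the forms of 25 and 22 bases were in 160 and 81 transcripts. At exon 23 the acceptors that give 47 and 44 bases were in 148 and 79 transcripts, and at exon 19 those that give 189 and 186 bases were in 195 and 50. The other 4 pairs were at exons 4, 11 and 16 and at the last exon, where the less used site was in 1, 15, 3 and 3 transcripts.

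At fbl the introns inside exons and the fused junctions lay mainly in exons 2 and 3. The consensus chain of fbl had 8 internal exons of 180, 105, 95, 171, 133, 113, 146 and 612 bases. Exons 5, 6 and 7 were full in 147, 149 and 155 of 160 spanning transcripts. Exon 9 was full in 56 of 159, and 58 transcripts ended in a last exon that starts at the same acceptor. Exon 2, at 141391 to 141570, was full in 9 of 165, absent from 1 and present in another form in 155. Exon 3, at 140771 to 140875, was full in 84 of 160 and altered in 70, and exon 4 was full in 106 of 160.

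The 180 bases of exon 2 were broken up by introns called inside the exon. There were 45 different introns of this kind in exon 2 and 47 in the whole gene, rank 3 of 7252 loci after the locus of fus and prss8 with 103 and that of hnrnpa1 with 89. Of 7250 other loci, 12.5% had any. In 86 transcripts exon 2 lay in 2 or more pieces. The 47 introns measured 43 to 287 bases with a median of 71. Of all 137 introns of fbl, 22 (16.1%) were under 70 bases, against 1.48% of 287549 introns of the catalogue.

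The introns that recurred were all whole multiples of 3. Of the 47 introns, 20 were in at least 2 transcripts and all 20 were divisible by 3, against 53.6% of 815 at the other loci. These 20 share donors and acceptors inside exon 2, so they are not independent of each other. Of the 27 found in 1 transcript, 10 were divisible by 3. All 47 together gave 30 (63.8%, Wilson 95% interval 49.5% to 76.0%), against 45.1% of 2485. Most of the 47 overlap each other in exon 2, so this interval is no test against the other loci. The number of transcripts was at most 6, for an intron of 108 bases from base 46 to base 153 of the exon and for another of the same length.

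The bases kept of exon 2 varied accordingly. The median was 96 bases and 53 different amounts were found. In 135 of the 164 transcripts with a part of exon 2 (82.3%) the amount was divisible by 3. This share has no value of other loci beside it, and the transcripts share donors and acceptors within the exon. The amounts of 66 and 72 bases were the most frequent, with 15 transcripts each, while the full 180 bases were kept in 9. The donors inside the exon were used unequally: the donor 66 bases into the exon was used by 37 transcripts, that at 24 bases by 25 and that at 45 bases by 14.

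**Figure D4:**
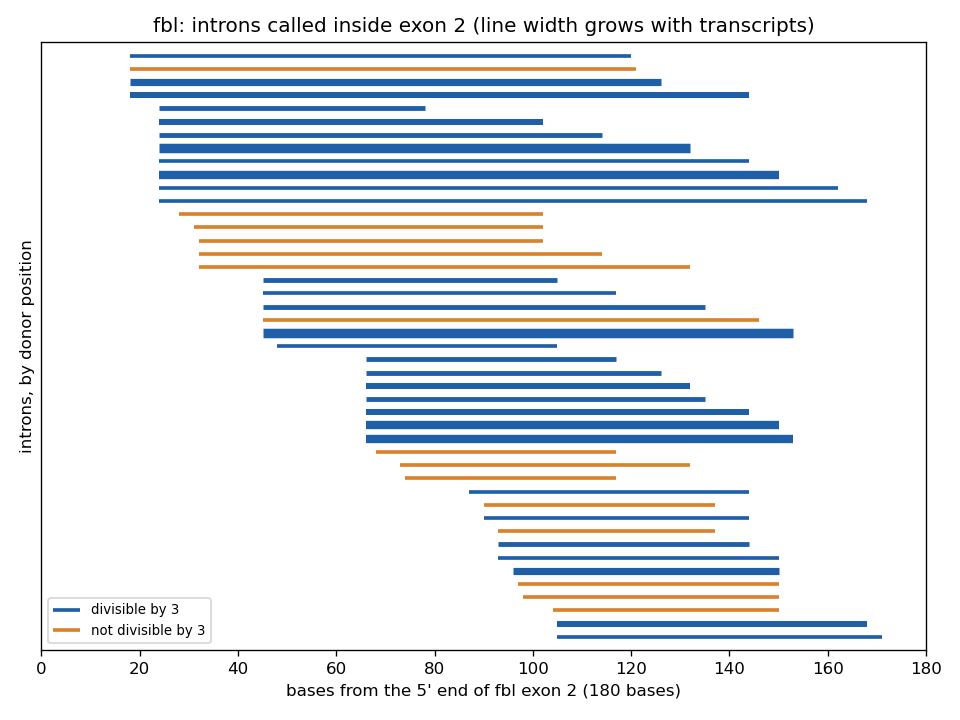
Each line is an intron called inside exon 2 of fbl, drawn from its donor to its acceptor in bases from the 5′ end of the exon, with a width that grows with the number of transcripts. Of the 45 introns 30 are divisible by 3, and the thick lines, in 2 or more transcripts, are all among them.

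Exons 2 and 3 were also fused to each other. Of 42 junctions between the insides of different exons of fbl, rank 12 of 7252 loci, 32 connected exons 2 and 3. The fused pieces measured 75 to 206 bases, in 27 different lengths, while whole exons 2 and 3 sum to 285 bases. Of all 42, 26 (61.9%, Wilson 95% interval 46.8% to 75.0%) gave a length divisible by 3, against 45.8% of 4134 at the other loci. Many of these junctions share a donor or an acceptor and are not independent of each other, so the interval is no test against the other loci. Of the 12 in at least 2 transcripts 8 did, against 54.8% of 1247, a share near that of the other loci.

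Taken from the donor of exon 1 to exon 5, no transcript of 144 had exons 2, 3 and 4 all in full, which would sum to 380 bases. The spliced length there had a median of 274 bases, a range of 66 to 356 and 79 different values. It differed from 380 by a multiple of 3 in 87 transcripts (60.4%). At tcof1 and the other loci the reference was the most frequent length, so this share is not like for like with theirs. At the other loci that share was 55% of 11066 transcripts. The like measure at fbl covered only the stretch between exons 5 and 8. There 1 of 131 transcripts had another length than the most frequent one, and it did not differ by a multiple of 3.

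Exon 4 had 6 forms. Its form of 95 bases was in 106 transcripts, that of 72 bases in 21 and that of 68 bases in 19. At the border of exons 5 and 6, 150 transcripts used an intron of 143 bases, and 6 used an intron of the same length moved by 4 bases. Exon 6 then had 129 bases in place of 133 and exon 5 had 175 in place of 171.

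Skipped exons in the strict sense numbered 19 at fbl. Of these, 13 (68.4%, Wilson 95% interval 46.0% to 84.6%) were divisible by 3, against 45.6% of 14449 at the other loci. Overlapping forms of the same exon are not independent of each other, so the interval is no test against the other loci. The 19 were forms of exons 2, 3, 4 and 5. The form of exon 4 with 95 bases, in 102 transcripts with flanks that others join directly, and the full exon 3 with 105 bases, in 50, were those with the most transcripts. Of the 9 forms of exon 2, 2 were pieces of 3 and 2 bases. With overlapping forms counted as 1, fbl had 5 skipped exons, of which 3 were divisible by 3, and tcof1 had 12, of which 10 were. With any exon that lies inside an intron of another transcript called skipped, fbl had 101, of which 55.4% were divisible by 3, and tcof1 had 73, of which 45.2% were. No exon of fbl was constitutive.

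Among alternative sites of fbl, 7 of 102 acceptor pairs (6.86%) and 13 of 166 donor pairs (7.83%) lay 3 bases apart. At the other loci the shares were 12.5% of acceptor pairs and 8% of donor pairs.

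Retained introns, meaning introns that lie wholly inside an exon of another transcript, numbered 47 at fbl and 4 at tcof1, where the median over all loci was 0. Those of fbl were the same 47 introns inside exons, and 63.8% were divisible by 3, against 40.8% of 5918 at the other loci. At tcof1, 3 of the 4 lay in the last exon. They measured 140, 177 and 174 bases, were spliced in 18, 41 and 3 transcripts and were retained in 174 or 175. Exon 24, of 21 bases, is the front of the last exon that remains when the intron of 177 or 174 bases is removed.

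The assembled 5′ ends of both genes were many, while nearly all transcripts of a gene shared 1 first donor. The numbers of starts have no value of other loci beside them. Whether these ends are transcription starts was not tested. Separate first exons, with overlapping ones counted as 1, numbered 5 at fbl and 3 at tcof1. These were ranks 771 and 1855 of 7252 loci, with a median of 2. At fbl 161 of 165 transcripts began with an exon that ended in the same donor, at 142716, and they had 17 different starts that gave first exons of 7 to 498 bases. Starts in 5 or more transcripts numbered 10 and took 149 transcripts. The first exons of 311, 240, 498, 120 and 205 bases were the most frequent, in 24, 23, 22, 20 and 18 transcripts.

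At tcof1 244 of 248 transcripts shared the first donor, at 121814, with 10 starts. The first exon of 216 bases alone was in 160. Other frequent first exons came in pairs 7 bases apart: 335 and 342 bases in 23 and 17 transcripts, and 557 and 564 bases in 16 and 22. A first exon of 223 bases, 7 longer than the main one, was in 1 transcript. The 4 transcripts of each gene that began elsewhere had first exons of 1 to 12 bases.

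**Figure D5:**
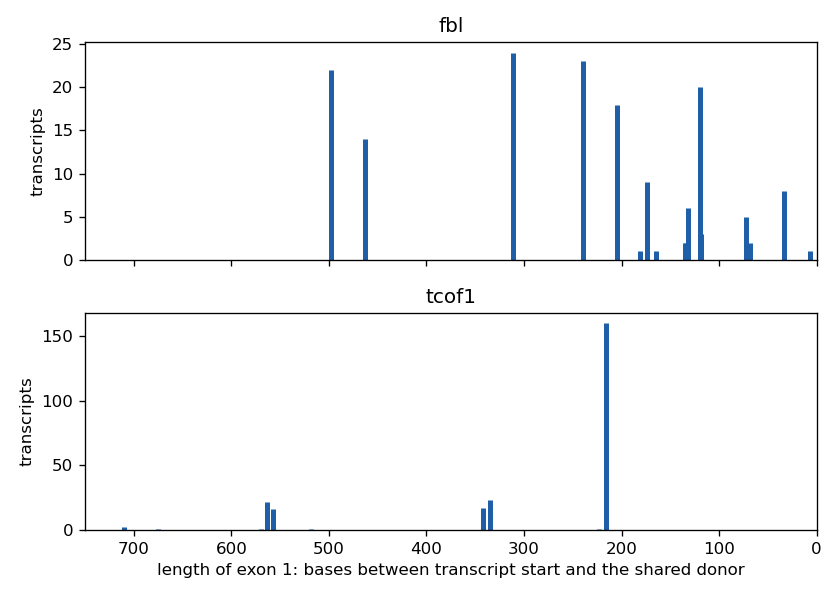
Lines give the number of transcripts, on the vertical axis, by the length of exon 1 in bases from the transcript start to the shared first donor, on the horizontal axis, for fbl above and tcof1 below. The gene fbl has 10 starts in 5 or more transcripts, while 160 of the transcripts of tcof1 have a first exon of 216 bases.

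The assembled 3′ ends of the genes differed. Separate last exons, with overlapping ones counted as 1, numbered 5 at fbl and 3 at tcof1. These were ranks 331 and 1058 of 7252 loci, with a median of 2. Several of the last exons had only 8 to 11 bases, and whether the assembled ends are true 3′ ends was not tested. In fbl 58 transcripts ended with a last exon of 624 bases, at 138176. Another 60 went on from 138188 through an intron of 1179 bases to a last exon of 11 bases, at 136998, and 40 ended in a last exon of 9 bases at 137988, reached through introns of 670 bases in 26 transcripts and of 937 bases in 14. In tcof1 237 of 248 transcripts ended at 90824, with last exons of 1433 bases in 174 transcripts and of 1235 bases in 59. A last exon of 8 bases, at 102227, was in 10 transcripts.

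The opposite strand held 1 transcript at fbl and 2 at tcof1, and these numbers have no value of other loci beside them. Across fbl lay 1 spliced transcript of 3 exons on the plus strand, from 125860 to 138802, which overlapped the last exon of fbl and began beyond its 3′ end. Across the middle of tcof1 lay 2 transcripts of 3 exons on the plus strand, both beginning at 107268. One of them had an intron of 7319 bases from 109050 to 116368. The tcof1 intron between exons 7 and 8, in 230 transcripts, has the same length and is moved by 4 bases at both ends. The opposite-strand transcript was coded as sharing an intron with the opposite strand. Whether it is a separate RNA was not tested. Other opposite-strand introns also lay near introns of the genes. That from 138553 to 138641 lay near the fbl intron from 138561 to 138631, in 1 transcript. Those from 107432 to 108064 and from 108381 to 108673 lay near the tcof1 introns from 107459 to 108100 and from 108356 to 108695. The intron from 125868 to 138175 had no fbl intron near both of its ends. The cause of this nearness was not tested. The libraries kept the strand of the RNA, per the labels' protocols.

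The nearest annotated genes were lsr, 10278 bases upstream of fbl, and dyrk1a.2, 11300 bases beyond its 3′ end. For tcof1 cd74 lay 4258 bases beyond the 3′ end, and the nearest gene upstream, csf1r, lay 145205 bases away. Each of the loci held 1 annotated gene.

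The genes closest in isoform and exon number gave other values on some measures and like values on others. They were taken from 5960 genes whose loci held 1 annotated gene, so loci that join genes were left out. For fbl they were hnrnpa2b1 with 174 isoforms, nucks1 with 121 and hsp90ab1 with 122. For tcof1 they were hnrnpa3 with 239, vwa5a.2 with 143 and cdk11b with 133, the last 2 well below the 248 of tcof1. Introns inside exons numbered 47 at fbl, against 8 at hnrnpa2b1, 5 at nucks1 and 20 at the chaperone gene hsp90ab1, the genes closest to it in isoform and exon number. Of those in at least 2 transcripts, 20 of 20 at fbl were divisible by 3, against 2 of 2 at hnrnpa2b1, 0 of 1 at nucks1 and 3 of 4 at hsp90ab1. Of 34 fused junctions at tcof1, 30 gave a length divisible by 3, against 55 of 69 at hnrnpa3, 5 of 22 at vwa5a.2 and 2 of 4 at cdk11b, the genes closest to tcof1. Restricted to junctions in at least 2 transcripts, it was 27 of 29 at tcof1, against 21 of 28, 3 of 11 and 2 of 3. Of the fused junctions of fbl 26 of 42 were divisible by 3, against 38 of 61 at hnrnpa2b1, 1 of 3 at nucks1 and 27 of 42 at hsp90ab1. With the same restriction it was 8 of 12 at fbl, against 21 of 28, 1 of 1 and 8 of 10. Of the skipped exons of fbl 13 of 19 were divisible by 3, against 24 of 40, 1 of 1 and 4 of 6 at these genes. Of the skipped exons of tcof1 12 of 17 were, against 38 of 42 at hnrnpa3, 8 of 15 at vwa5a.2 and 12 of 19 at cdk11b. None of these comparisons was tested.

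Among the 67 other nucleolar genes, 17 had an intron inside an exon and 21 a junction between the insides of 2 exons. Of 7250 other annotated loci, 12.5% and 12.9% did. These loci had at least 2 spliced transcripts each, which not all 67 genes had. The list genes also had more isoforms, with a median of 10 against 6 over all genes, so the shares are not like for like. The largest number of introns inside exons among the list genes was 12, at gar1, whose product is a glycine- and arginine-rich protein of the box H/ACA particles. Of these, 5 were in at least 2 transcripts and all 5 were divisible by 3. Its fused junctions went the other way: of 8, 3 were in at least 2 transcripts, and 0 of these 3 gave a length divisible by 3. The largest number of fused junctions was 20, at wdr3. The gene gar1 was named after its values had been seen.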

How the data were processed

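The 40 libraries were grouped by stage from the labels, but both deposited files describe 1 assembly of the whole series, so groups were not compared. Bowtie, TopHat and Cufflinks appear in the submitters' processing notes. Their versions, the build and the annotation were not given in the sources used here. The column headed FPKM holds a score that the authors deposited: none exceeds 1, 58.9% of 167756 equal 1, and all confidence bounds are 0. They are called relative weight and were used only as a filter. The deposited coverage, a signal up to 10.2, is not depth and supports no result here. The gene models give exon ends of 159469 transcripts.

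The members and lists were chosen with earlier results of these data known. Events were called per locus with Python 3.11.15 from transcripts coded as matching, sharing a junction with or overlapping the annotated gene. A constitutive exon was in every transcript spanning it, at least 3. Groups of overlapping internal exons, without forms seen once and forms holding an intron used by over 50% of spanning transcripts, gave the consensus exons. Planned shares for the annotated model have no main value, because neither gene has one; consensus exons took its place. Genes named were fbl, tcof1 and the 6 list genes with the most isoforms. The box C/D genes, nolc1 and the RNA polymerase I genes with a model were also named, as were list genes without assembly. Neighbours and the 3 closest genes by log2 isoform and exon number completed the set. The event calls were checked on simulated loci. No sequence is printed, because no genome of the files' build was used here. Wilson intervals used SciPy 1.17.1.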

Additional observations from a re-analysis of the deposited data

How the results depend on the processing

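Of 103 values recomputed for fbl and tcof1, 76 stayed within 1.5 times a count or within the Wilson interval of a share, and 27 moved. Leaving out annotated models moved none, since neither gene has one. With a relative weight of 1 alone, fbl had 89 isoforms, 27 retained introns, 27 introns inside exons of which 77.8% were divisible by 3, and 24 fused junctions; tcof1 had 88 isoforms, 11 skipped exons, 2 retained introns, 14 alternative splice sites against 24, no intron inside an exon (0), and 96.3% of fused junctions divisible by 3. With at least 2 transcripts for each form, fbl had 10 skipped exons of which 90% were divisible by 3, 20 retained introns, 33 alternative splice sites against 78, 20 introns inside exons of which 100% were divisible by 3, 12 fused junctions and 2 acceptor pairs 3 bases apart; tcof1 had 0 introns inside exons. With overlapping exons counted as 1, fbl had 9 internal exons against 103 and 5 skipped exons, and tcof1 had 23 internal exons against 80. Told apart by their splice site, the last exons of tcof1 numbered 6 against 3. With an exon called skipped inside any intron, an alternative added after the data had been seen, fbl had 101 skipped exons and tcof1 had 73, of which 45.2% were divisible by 3; the other loci were not recounted this way. The row of 14 exons kept its length with the most frequent exon forms, with the transcript that had the most exons and with a relative weight of 1 alone. The alternatives for introns inside exons, fused junctions, acceptor pairs and rows were also added after the data had been seen. The cause of these moves was not tested. No paired analysis was possible because no value belongs to a single library. Depth is unknown, so forms in 1 transcript cannot be weighed by reads.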
